A study of Mus musculus with 4 samples.

Results

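The spots described here were picked from spatial maps of mouse brain sections as those richest in 4 genes of the cells that line the brain's ventricles, Ccdc153, Tmem212, Dynlrb2 and Rarres2. Among spots under tissue with 1000 or more unique molecular identifiers (UMI, the tags by which captured molecules are counted), the top 1.5% of each section by the summed share of those genes were taken. This gave 179 of 11929 spots: 45 of 3030 in rNLS8 replicate 1, 40 of 2649 in rNLS8 replicate 2, 47 of 3150 in Control replicate 1 and 47 of 3100 in Control replicate 2. The 11750 spots not taken are called the remaining spots. Because the counts themselves picked the spots, every level set against the remaining spots is a description, and the 4 selecting genes were left out of all fits.

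The ependyma is the single layer of epithelial cells between the ventricles and the brain tissue. Most of its cells carry a tuft of motile cilia whose beat moves cerebrospinal fluid, and each cilium is built on an axoneme, a ring of microtubules driven by dynein motors and tuned by radial spokes and a central pair. Beneath it, in the wall of the lateral ventricle, lies the subventricular zone, where neural stem cells and young neurons persist in the adult mouse.

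Expression was measured in 5 µm sections of fixed, paraffin-embedded brain on a capture array, whose spots are small regions that can hold several cells of different types or part of one. The groups were 2 sections of genotype rNLS8 and 2 of genotype Control, all from mice 11 weeks old and listed with doxycycline (Dox) withdrawal as the treatment, 3 weeks before the brains were taken. In the rNLS8 line, as background, taking doxycycline away switches on human TDP-43 without a working nuclear import signal in neurons, through a transactivator under the promoter of the neurofilament heavy chain, so the transgene is not driven by a promoter of ependymal cells. The labels do not give the alleles that the Control mice carry, and name replicate 1 female and replicate 2 male in each group.

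Summed over the selected spots, the sections held 598870 and 216986 UMI in rNLS8 and 237639 and 337078 UMI in Control. The row for Tardbp, the gene of TDP-43, held 197 and 138 UMI over all kept spots of the rNLS8 sections and 0 in both Control sections. In the selected spots it held 7 and 2 UMI in rNLS8 and 0 in both Control sections, whose total counts give 3 counts a level of 12.6 and 8.90 CPM (counts scaled to a library total of 1000000). Mouse Tardbp is widely expressed and the probe set is not given in the sources used here, so whether this row measures the mouse gene is not known, and the 0 is not read as its level in Control. Transcripts of 4 Y-linked genes stood at 137 and 139 CPM in the rNLS8 sections and at 0 and 107 CPM in the Control sections, so rNLS8 replicate 1 goes against its label of female, and whether the rNLS8 sections came from separate animals is not settled. P-values therefore measure only the spread between these sections. Y-linked transcripts were found in both rNLS8 sections but in only 1 Control section, replicate 2. By these transcripts sex was thus not balanced between the groups, and its part in the genotype comparisons was not tested.

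The data went partly against the name of ventricle wall. Only 112 of the 179 spots held a UMI of 2 or more of the 4 genes, 42 and 12 in rNLS8 and 32 and 26 in Control, which is 93.3% and 30.0% of the selected spots in rNLS8 and 68.1% and 55.3% in Control. The shares of the Control sections lay between those of the rNLS8 sections. The other 67 spots held 1 of the genes, in 54 of them Rarres2 alone, which encodes the secreted protein chemerin. In every section the lowest selected spot rested on 1 UMI. Just inside and just outside the limit, the summed level of the 4 genes in the spot, in CPM, was 637 and 635 in rNLS8 replicate 1, 422 and 418 in rNLS8 replicate 2, 923 and 918 in Control replicate 1, and 601 and 600 in Control replicate 2.

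**Figure D1:**
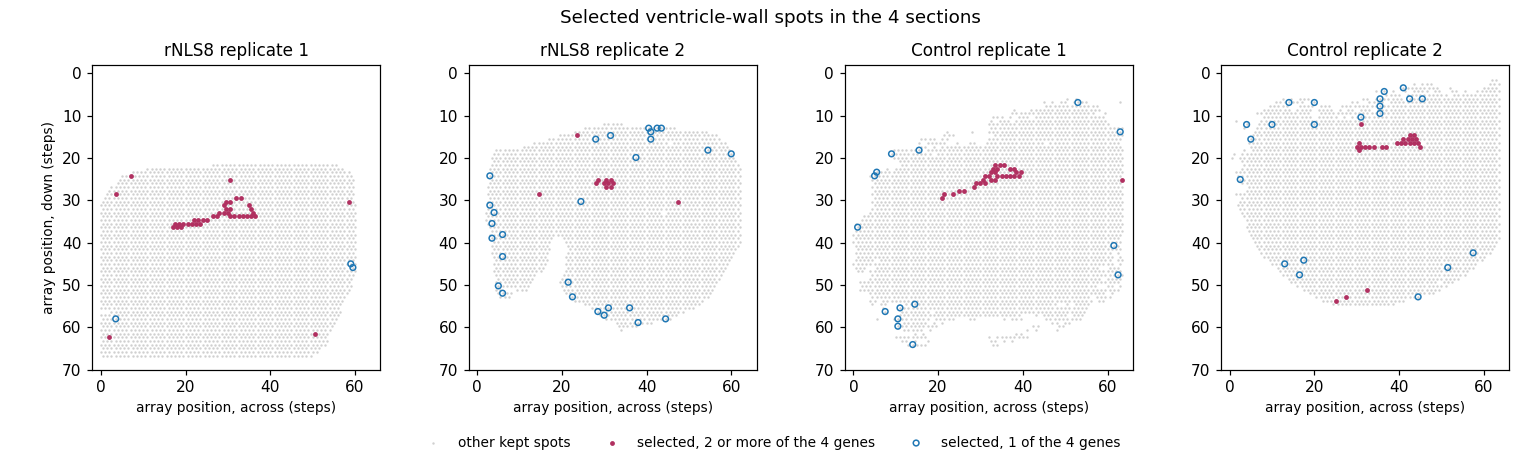
Array position of the kept spots (grey) and the selected spots in the 4 sections, in array steps across and down. Filled points hold 2 or more of the 4 selecting genes and form 1 main band inside each section. Open circles hold 1 and lie mostly along the edge of the kept spots.

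As the map of the spots shows, the 2 classes lay in different places. Of the 112 multi-gene spots, 97 had another selected spot among their 6 array neighbours, against 8 of the 67 single-gene spots. The edge was taken as the nearest array position without a kept spot, low-count spots and gaps in the tissue included. More than 3 array steps from it lay 79.6% and 72.9% of all kept spots in rNLS8 and 69.3% and 74.4% in Control. Of the multi-gene spots 97 lay that far in, against 11 of the single-gene spots. The markers that the selection did not use differed in the same way. Foxj1, the transcription factor that switches on motile cilia, stood at 73.2 and 84.7 CPM in the multi-gene spots of rNLS8 and at 45.9 and 79.6 CPM in those of Control. It had 0 of 153878 UMI in the single-gene spots of all 4 sections together, which allows up to 19.5 CPM. The summed level of 16 genes of meningeal fibroblasts was 3619 and 1643 CPM in the single-gene spots of rNLS8 and 2043 and 281 CPM in those of Control. In the multi-gene spots it was 196 and 177 CPM in rNLS8 and 174 and 103 CPM in Control. The multi-gene spots are thus the ones that carry ciliary markers, and they supplied 98.1% and 59.9% of the selected spots' UMI in rNLS8 and 91.8% and 89.4% in Control. Their values are given beside several of the main ones, since their share of the selected spots differed between sections.

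Depth followed the same division. The median multi-gene spot held 14332.5 and 10359 UMI in rNLS8 and 6203 and 13198 UMI in Control, and the median single-gene spot 2739 and 2322 UMI in rNLS8 and 1043 and 1409 UMI in Control. Over all selected spots the medians were 14218 and 3265 UMI in rNLS8 and 4969 and 3248 UMI in Control.

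Markers of neighbouring structures were also present at the wall. Of 17 choroid plexus genes, Ttr, which encodes transthyretin and is the most abundant transcript of that epithelium, had 3 and 0 UMI in the multi-gene spots of rNLS8 and 1 and 16 UMI in those of Control. The summed level of the 17 genes in those spots was 240 and 139 CPM in rNLS8 and 248 and 421 CPM in Control, highest in Control replicate 2. In the remaining spots it was 98.3 and 51.4 CPM in rNLS8 and 112 and 125 CPM in Control, lower than in the multi-gene spots of each section. Kl, which choroid plexus also makes, was at 0 in the multi-gene spots of all 4 sections. A count of 0 there allows up to 5.11 and 23.1 CPM in rNLS8 and 13.8 and 9.95 CPM in Control. Of the 17 genes, only Clic6 and Folr1 had enough counts in the selected spots to be compared between genotypes. The 10 tanycyte genes summed to 238 and 500 CPM in rNLS8 and to 289 and 319 CPM in Control in the multi-gene spots, against 205 and 293 CPM in rNLS8 and 223 and 242 CPM in Control in the remaining spots. The part of these cells in the results below was not tested.

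The selecting genes themselves were concentrated at the wall, which describes the selection and is no result. Ccdc153, a ciliary coiled-coil protein, stood at 453 and 723 CPM in the multi-gene spots of rNLS8 and at 711 and 766 CPM in those of Control. At 1 array step from them it was at 60.7 and 33.7 CPM in rNLS8 and 83.8 and 60.2 CPM in Control, and at 5 or more steps at 4.1 and 3.6 CPM in rNLS8 and 5.1 and 4.0 CPM in Control. The selected spots held 58.2% and 55.9% of all Ccdc153 UMI of the rNLS8 sections and 48.0% and 59.4% of those of the Control sections. For Rarres2 they held 26.0% and 18.5% in rNLS8 and 28.4% and 31.2% in Control, less than for Ccdc153 in each section. In the authors' deposited table of Moran's I, a score of how strongly a gene's level clusters in space, Ccdc153 scored 0.281 and 0.181 in rNLS8 and 0.240 and 0.222 in Control. In the authors' deposited table its rank among all scored genes was 59 and 117 in rNLS8 and 27 and 78 in Control.

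Cilium genes that the selection did not use led the selected spots. Ratios are given as log2 of CPM plus 1, scaled by the summed counts alone, in selected over remaining spots, as the mean ± SD of 4 sections. Of 3552 genes with 100 or more UMI in the selected spots, 930 (26.2%) had the higher level there in all 4 sections, 892 (25.1%) the lower, and 61 exceeded a ratio of 4-fold in all 4. The 20 with the largest mean ratio included 13 from the lists of wall genes, and spanned 4.47 to 5.83. Of the 3552 genes, 16 were in the list of axonemal microtubule proteins and 26 in that of other ependymal genes. The lists of dynein assembly factors and of spoke and central pair proteins held 6 each, dynein chains 2 and transcription factors 0. These lists were chosen with earlier results of these data known, so the count of 13 is a description. Since the spots were selected by counts of the same libraries, no test was made of these ratios.

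Dnali1, an axonemal dynein light chain, led with 5.83 ± 0.12. It stood at 191 and 130 CPM in the selected spots of rNLS8 and at 221 and 201 CPM in those of Control, and between 1.31 and 3.50 CPM in the remaining spots of the 4 sections. Tctex1d4, of the Tctex family of dynein light chains, followed at 5.72 ± 0.40 and Odf3b, a relative of an outer dense fibre protein of sperm tails, at 5.54 ± 0.16. A further 3 leaders were named for cilia and flagella: Cfap73 (5.21 ± 0.53), Cfap65 (5.11 ± 0.19) and Cfap299 (4.94 ± 0.37). Dnaaf3, which helps to assemble dynein arms in the cytoplasm, was at 4.79 ± 0.56, Lrrc23, a protein of the radial spoke, at 4.74 ± 0.18 and Tekt1, a tektin of the microtubule wall, at 4.48 ± 0.49.

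**Figure D2:**
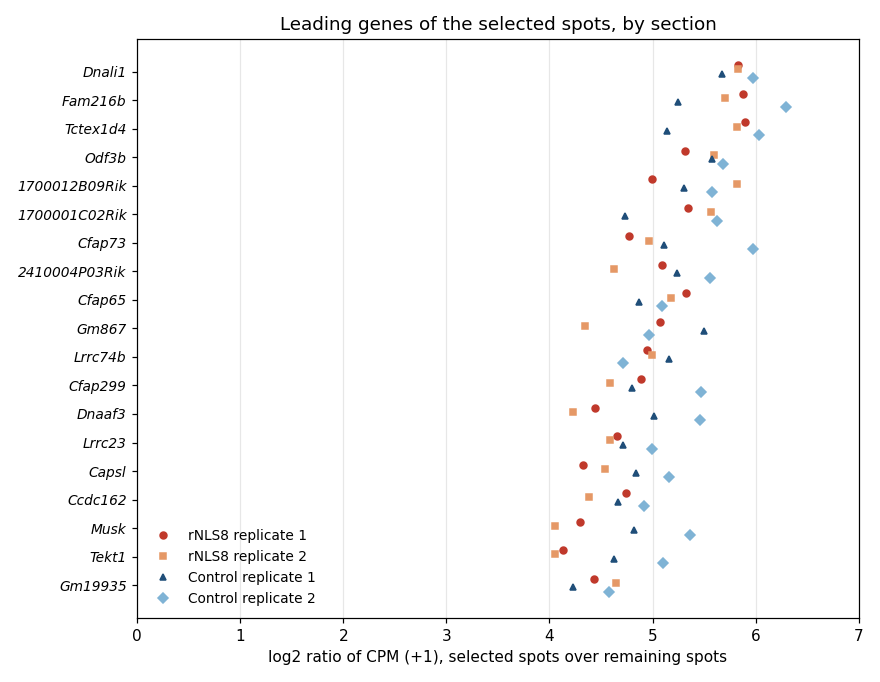
Log2 ratio of CPM plus 1 in selected over remaining spots for 19 of the 20 leading genes, 1 point per section, ordered by the mean. All points lie above 4, and the rNLS8 and Control sections are interleaved for most genes.

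Among the leaders is a gene best known from other cells. Musk, the receptor tyrosine kinase of the neuromuscular junction, was at 4.63 ± 0.58, with 77.9 and 67.4 CPM in the selected spots of rNLS8 and 134 and 156 CPM in those of Control. Fam216b (5.78 ± 0.43), 1700012B09Rik (5.42 ± 0.36), 1700001C02Rik (5.32 ± 0.41), 2410004P03Rik (5.13 ± 0.39), Gm867 (4.97 ± 0.48) and Gm19935 (4.47 ± 0.18) are named without a role here. Also among the leaders were Lrrc74b (4.95 ± 0.18), Capsl, which encodes a calcyphosine-like protein (4.72 ± 0.36), and Ccdc162 (4.68 ± 0.22). In the authors' deposited table the 20 leaders had median scores of 0.139 and 0.0917 in rNLS8 and 0.0583 and 0.0993 in Control.

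Promoters of the selecting and leading genes were read from RefSeq for GRCm38.p6, the assembly of the mm10 build, since RFX factors bind an X-box in the promoters of many ciliary genes. Of the 24 genes, 17 had an entry. The window runs from 250 bases before to 50 bases after the start. A loose X-box pattern, GTTNC and GNNAC with 3 bases of any kind between them, was found in it on either strand in 5 of the 17 (29.4%), Tmem212, Dynlrb2, Fam216b, Gm867 and Lrrc23, and in 3.80% of 27018 genes. The shorter pattern GTTGCC was found in 5 of 17 (29.4%) and in 14.1% of all genes, and the full pattern, GTTNCCA directly followed by TGGNAAC, in 0 of 17 and in 0.152% of all genes. In Dynlrb2 the loose match overlaps GTTGCC. In all, 9 patterns were searched with the results in view, so the shares are descriptions, and a match is neither a site nor a cause. The 250 bases before the start of 3 of these genes are shown with the match in capitals, to place it relative to the start at the right-hand end: chr8:116504765-116505014 on the plus strand for Dynlrb2, chr3:27896369-27896618 on the minus strand for Tmem212 and chr6:124779728-124779977 on the minus strand for Lrrc23.
Dynlrb2: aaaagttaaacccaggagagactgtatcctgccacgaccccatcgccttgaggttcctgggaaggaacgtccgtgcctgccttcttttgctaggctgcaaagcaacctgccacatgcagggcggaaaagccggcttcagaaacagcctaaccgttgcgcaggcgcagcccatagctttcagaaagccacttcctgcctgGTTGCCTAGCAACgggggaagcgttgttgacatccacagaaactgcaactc
Tmem212: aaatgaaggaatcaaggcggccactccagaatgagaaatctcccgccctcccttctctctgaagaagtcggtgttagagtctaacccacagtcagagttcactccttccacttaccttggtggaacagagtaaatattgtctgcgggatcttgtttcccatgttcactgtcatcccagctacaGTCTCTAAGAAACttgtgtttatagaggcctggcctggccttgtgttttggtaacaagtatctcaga
Lrrc23: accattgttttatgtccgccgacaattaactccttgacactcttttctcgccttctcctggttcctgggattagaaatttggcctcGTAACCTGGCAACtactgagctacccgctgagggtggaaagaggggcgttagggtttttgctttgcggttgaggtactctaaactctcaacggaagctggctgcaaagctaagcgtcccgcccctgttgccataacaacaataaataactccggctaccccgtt
The match begins 51 bases before the start in Dynlrb2, 67 in Tmem212 and 164 in Lrrc23.

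By role, each group of cilium genes, summed over all its genes in the files, had the higher level in the selected spots of every section. The 61 axonemal microtubule proteins summed to 3501 and 2820 CPM in the selected spots of rNLS8 and to 2994 and 4216 CPM in those of Control, against 459 and 414 CPM in the remaining spots of rNLS8 and 375 and 426 CPM in those of Control. The 16 dynein chains summed to between 452 and 711 CPM in the selected spots of the 4 sections and to between 26.0 and 30.1 CPM in the remaining spots. The 22 dynein assembly factors lay between 738 and 957 CPM in the selected spots and between 186 and 221 CPM in the remaining spots, and the 25 proteins of the spokes and central pair between 1034 and 1427 CPM and between 154 and 172 CPM. Rsph1, a radial spoke head protein, stood at 174 and 193 CPM in rNLS8 and at 273 and 219 CPM in Control in the selected spots, and between 12.7 and 20.2 CPM in the remaining spots. For intraflagellar transport and the BBSome, which all ciliated cells including neurons use, the 33 genes summed to between 1703 and 1867 CPM in the selected spots and between 1126 and 1361 CPM in the remaining spots. Another 4 genes, factors of multiciliated cells, had fewer than 100 UMI and ran the same way: Foxj1 at 4.00 ± 0.21, Myb at 4.11 ± 0.47, Trp73 at 3.84 ± 0.70 and Rfx2 at 2.78 ± 0.93.

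The 42 genes otherwise described in ependymal cells summed to between 16365 and 18835 CPM in the selected spots and between 7947 and 9191 CPM in the remaining spots. Nnat, which encodes a small membrane proteolipid, stood at 3151 and 2373 CPM in the selected spots of rNLS8 and at 3608 and 3017 CPM in those of Control, a log2 ratio of 2.48 ± 0.36. Vim, the filament protein of ependyma and immature glia, was at 2.34 ± 0.59. Genes of the subventricular zone shared the location: the 21 genes summed to 2868 and 3217 CPM in the selected spots of rNLS8 and to 2244 and 2405 CPM in those of Control, against 829 to 1028 CPM in the remaining spots of the 4 sections. Thbs4, made by stem cells and glia there, was at 2.86 ± 0.56, Ccnd2, a cyclin of dividing precursors, at 2.18 ± 0.18 and Sox11, a transcription factor of young neurons, at 2.13 ± 0.27.

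General astrocyte genes stood at similar levels in both zones: the 14 genes summed to between 6427 and 7647 CPM in the selected spots and between 5545 and 7042 CPM in the remaining spots. The 15 myelin genes summed to between 8303 and 14188 CPM in the selected spots and between 12025 and 14429 CPM in the remaining spots, and the 12 genes of excitatory neurons to between 1841 and 3577 CPM in the selected spots and between 4557 and 6562 CPM in the remaining spots. Zic1, a transcription factor of the septum, which borders the lateral ventricle, was higher at 1.33 ± 0.46.

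The comparison of genotypes asks whether the selected spots of rNLS8 brains differ in expression from those of Control brains. No gene passed. On section sums, 0 of 6311 genes (0.0%) were called by edgeR's quasi-likelihood test at a Benjamini-Hochberg adjusted p under 0.05, with 380 (6.02%) at an unadjusted p under 0.05, 188 higher (2.98%) and 192 lower (3.04%) in rNLS8. DESeq2 called 0, with 102 at an unadjusted p under 0.05. In the multi-gene spots alone edgeR called 0 of 5896 (0.0%), with 292 (4.95%) unadjusted. In sums of all cells at a spot, fewer cells of a type and less RNA per cell cannot be told apart.

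Among the genes with the smallest unadjusted p, none of which passed, B2m, which encodes beta-2 microglobulin of MHC class I, stood at 181 and 355 CPM in rNLS8 and at 56.3 and 84.0 CPM in Control. Both rNLS8 sections lay above both Control sections, with a log2 fold change of 1.83 (standard error, SE, 0.37; edgeR adjusted p = 0.607). B2m stood in the multi-gene spots at 171 and 285 CPM in rNLS8 and 61.2 and 80.5 CPM in Control. Ctsd, the lysosomal protease cathepsin D, stood at 181 and 252 CPM in rNLS8 and at 69.3 and 84.0 CPM in Control (1.44, SE 0.30), without overlap. In the multi-gene spots Ctsd was at 176 and 165 CPM in rNLS8 and at 56.5 and 90.6 CPM in Control. Sox11 was at 572 and 544 CPM in rNLS8 and at 217 and 333 CPM in Control (1.02, SE 0.25), again without overlap. Over all genes tested, 1145 of 6311 (18.1%) lay higher in rNLS8 without overlap. Its levels in the multi-gene spots were 585 and 826 CPM in rNLS8 and 235 and 366 CPM in Control.

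The other genes at this end were Pdrg1, of the prefoldin family of chaperones, Ube2j1, a ubiquitin-conjugating enzyme of the endoplasmic reticulum, Ddah2, Plekha1, Sun2, which links the nucleus to the cytoskeleton, Eif3h, a subunit of translation initiation factor 3, and Ccnl2. Their log2 fold changes ran between 1.04 and 2.93, the last for Eif3h, which rested on 25 and 10 UMI in rNLS8 and 2 and 1 UMI in Control. Adjusted p was 0.607 or, for Ccnl2, 0.729 by edgeR.

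At the lower end, Pcp4, a calmodulin-binding protein of neurons, stood at 288 and 202 CPM in rNLS8 and at 537 and 561 CPM in Control (-1.11, SE 0.25; edgeR adjusted p = 0.607). Prkcb, a protein kinase C, was at 292 and 225 CPM in rNLS8 and at 619 and 465 CPM in Control (-1.02, SE 0.25). Nrn1, the neurite growth factor neuritin, was at 41.4 and 89.9 CPM in rNLS8 and at 156 and 150 CPM in Control (-1.39, SE 0.35). Scg5, Camkk2, Sult4a1, Rasgef1a, Tomm70a and Itpka had log2 fold changes between -1.05 and -0.91. For each of these genes the sections of the groups did not overlap, and the background for non-overlap in the lower direction is 19.6% of genes tested.

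**Figure D3:**
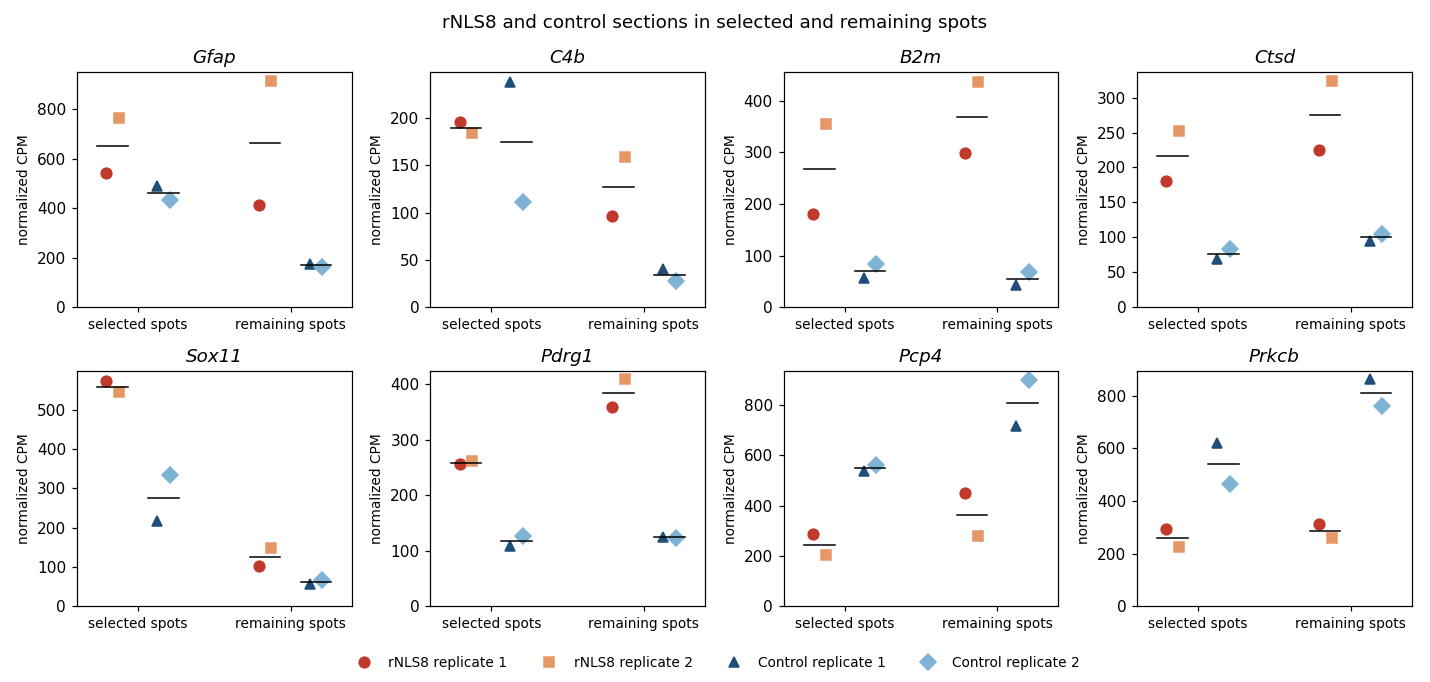
Normalized CPM of 8 genes in selected and remaining spots, with 1 point per section and a bar at the group mean, rNLS8 left of Control. In the selected spots Gfap and C4b of Control lie near or among those of rNLS8, while in the remaining spots both Control sections lie far below.

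Ciliary genes mostly had log2 fold changes below 0 in rNLS8, in the remaining spots as well as at the wall, and none of them passed. Of the 20 leading genes, 17 had a log2 fold change below 0 and 3 above, with a median of -0.47, against 0.00 over all genes tested. Over all genes tested, 3.04% were lower at an unadjusted p under 0.05. Of the 20 leading genes 7 were (Cfap73, 2410004P03Rik, Lrrc74b, Dnaaf3, Capsl, Musk and Tekt1) and 0 were higher, and the smallest edgeR adjusted p was 0.783. Musk had the largest of these differences, -0.96 (SE 0.29). Over the multi-gene spots the count was again 17 below 0 and the median -0.35, with 5 at an unadjusted p under 0.05. There Dnali1 stood at 195 and 218 CPM in rNLS8 and at 240 and 225 CPM in Control, and Tekt1 at 66.1 and 75.1 CPM in rNLS8 and at 104 and 138 CPM in Control.

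Over the lists, 35 of 61 axonemal microtubule proteins in the files were tested, 28 were below 0 and 7 above, and the median was -0.30. Of these, 5 had an unadjusted p under 0.05 and lower values, against 3.04% of all genes tested. Mns1, a protein inside the doublet microtubules, was at 106 and 130 CPM in rNLS8 and at 225 and 153 CPM in Control. Of 8 dynein chains tested 7 were below 0 (median -0.50), of 12 assembly factors 9 (-0.20) and of 14 spoke and central pair proteins 12 (-0.25). Their medians in the multi-gene spots were -0.20 for the microtubule proteins, -0.38 for dynein chains, -0.06 for assembly factors and -0.14 for spoke and central pair proteins. The summed level of the microtubule proteins there was 3561 and 4418 CPM in rNLS8 and 3224 and 4654 CPM in Control, so the groups overlapped. In the remaining spots the medians were -0.28 for the microtubule proteins, -0.28 for dynein chains, -0.40 for assembly factors and -0.35 for spoke and central pair proteins, and -0.53 for the 20 leading genes. The median of the difference of effects over 52 microtubule proteins was -0.04. Of 10 listed transcription factors of multiciliated cells 4 were tested at the wall, 2 of them above 0 and 2 below. Their median was -0.21, and -0.11 in the multi-gene spots.

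Foxj1 was at 71.3 and 49.4 CPM in rNLS8 and at 43.3 and 72.0 CPM in Control over the selected spots, an overlap, with a log2 fold change of 0.11 (SE 0.38; edgeR adjusted p = 0.982). Rfx2, a factor that binds the X-box, was at 48.1 and 62.9 CPM in rNLS8 and at 8.66 and 30.0 CPM in Control (1.35, SE 0.55; edgeR adjusted p = 0.786), from 29 and 14 UMI in rNLS8 and 2 and 10 UMI in Control. Stoml3, a stomatin-like membrane protein of cilia, was at 11.6 and 8.99 CPM in rNLS8 and at 39.0 and 48.0 CPM in Control (-1.98, SE 0.62; edgeR adjusted p = 0.783), from 7 and 2 UMI in rNLS8 and 9 and 16 UMI in Control.

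Subventricular zone genes ran the other way: of 17 tested, 13 were above 0 and 4 below, with a median of 0.34, and in the remaining spots 13 of 20 were above 0, with a median of 0.28. Of the 17 tested at the wall, 2 were higher at an unadjusted p under 0.05, Sox11 and Ccnd2, against 2.98% of all genes tested. Ccnd2 was at 340 and 324 CPM in rNLS8 and at 178 and 237 CPM in Control (0.68; edgeR adjusted p = 0.783). Thbs4 was at 139 and 288 CPM in rNLS8 and at 212 and 354 CPM in Control, an overlap. The summed level of the 21 listed genes in the multi-gene spots was 2903 and 4703 CPM in rNLS8 and 2353 and 2571 CPM in Control. rNLS8 replicate 2 was the highest and had the fewest multi-gene spots.

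Several lists of immune and glial response genes had mostly positive log2 fold changes in rNLS8 at the wall, and different sets of genes could be tested in each zone. Of 12 tested genes of disease-associated microglia 11 were above 0, with a median of 0.50 in the selected spots and 1.18 over 25 genes in the remaining spots. Of 7 genes of antigen presentation and complement 6 were above 0 (0.57, against 1.32 over 18 genes in the remaining spots). The medians in the multi-gene spots were 0.37 and 0.39. Of 4 reactive astrocyte genes tested at the wall all were above 0 (0.35, against 0.88 over 25 genes in the remaining spots), and the 1 macrophage and leukocyte gene was at -0.24, against a median of 1.19 over 9 genes in the remaining spots. For the difference of effects, the median was -0.42 for disease-associated microglia, -0.73 for antigen presentation and complement, -0.66 for interferon response, -0.07 for reactive astrocytes and 0.47 for macrophages and leukocytes, with no test over a list. Only 2 of the 33 interferon-response genes in the files had enough counts to be tested in the selected spots, Ifi27 (0.96) and Irf9 (1.78). Summed over all 33 genes, the level was 459 and 806 CPM in the selected spots of rNLS8 and 265 and 267 CPM in those of Control. The same sum was 553 and 919 CPM in the remaining spots of rNLS8 and 172 and 176 CPM in those of Control. In the remaining spots edgeR by default called 0 of 13375 genes (0.0%), with 2120 (15.9%) at an unadjusted p under 0.05. Neither zone thus gave a called gene in these lists by that fit, while DESeq2 called 521 genes in the remaining spots. At the unadjusted limit 28 of 31 interferon-response genes were higher in the remaining spots of rNLS8. So were 14 of 18 of antigen presentation and complement, 18 of 25 of disease-associated microglia, 10 of 25 of reactive astrocytes and 4 of 9 of macrophages and leukocytes. In each of these lists 0 were lower in the remaining spots. In the selected spots 2 of 2 interferon-response genes and 1 of 7 of antigen presentation and complement were higher at that limit. So were 3 of 12 of disease-associated microglia, 1 of 4 of reactive astrocytes and 0 of 1 of macrophages and leukocytes. Of the disease-associated microglia genes 1 was lower there. Over all genes tested in the selected spots 2.98% were higher and 3.04% lower.

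Choroid plexus genes among those tested were Clic6 and Folr1. Folr1, the folate receptor, was at 26.5 and 22.5 CPM in rNLS8 and at 73.6 and 45.0 CPM in Control (-1.17, SE 0.47; edgeR adjusted p = 0.786), and Clic6, a chloride channel family member, at 156 and 40.4 CPM in rNLS8 and at 143 and 267 CPM in Control (-0.89). Of 11 striatal genes 10 were below 0. The median was -0.33 in the selected spots, -0.28 in the multi-gene spots and -0.98 over 13 genes in the remaining spots. Summed over the list, the remaining spots held 5713 and 3159 CPM in rNLS8 and 6452 and 9265 CPM in Control, so the level also varied within each group. The median difference of effects was 0.52, with all 13 tested genes above 0 and no test over the list. The part of the amount of striatum in a section was not tested.

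Whether the rNLS8 effect differs between the wall and the rest of the section was tested on 8 sums, 2 per section, with the section as a block. The difference is that model's own estimate, so it is not exactly the gap between the fold changes fitted in each zone alone. By edgeR's quasi-likelihood test 5 of 13153 genes (0.038%) passed: among them the difference was below 0 for Gfap, C4b and Naaa and above 0 for Tesc. At an unadjusted p under 0.05 there were 749 genes (5.69%), and DESeq2 called 2. In this fit edgeR took the spread as shared by all genes, so no gene had a spread of its own.

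Gfap, the filament protein of astrocytes, which ependymal and stem cells of the wall also make (chr11:102887336-102897200), was called for this difference. It stood at 540 and 764 CPM in the selected spots of rNLS8 and at 489 and 432 CPM in those of Control, a log2 fold change of 0.50 (SE 0.24; edgeR adjusted p = 0.825). In the remaining spots it stood at 411 and 913 CPM in rNLS8 and at 176 and 163 CPM in Control, a log2 fold change of 1.96 (SE 0.36; edgeR adjusted p = 0.157). The difference of the effects was -1.31 (SE 0.16; edgeR adjusted p = 1.16e-11). In the multi-gene spots Gfap was at 517 and 631 CPM in rNLS8 and at 480 CPM in both Control sections, and the difference was -1.55.

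C4b, which encodes complement component C4 (chr17:34728139-34743902), followed the same course. It stood at 196 and 184 CPM in the selected spots of rNLS8 and at 238 and 111 CPM in those of Control (0.19, SE 0.32; edgeR adjusted p = 0.953), so the groups overlapped. In the remaining spots it was at 96.0 and 158 CPM in rNLS8 and at 40.0 and 27.7 CPM in Control (1.91, SE 0.30; edgeR adjusted p = 0.137). The difference was -1.55 (SE 0.23; edgeR adjusted p = 3.94e-08). C4b has a near-identical copy, C4a, so how counts were divided between them is uncertain.

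Gfap and C4b were called in 19 of 20 alternatives. The exception sets the selected spots against spots 1 or 2 array steps away in place of all remaining spots. There the differences were -0.53 for Gfap and -0.61 for C4b (edgeR adjusted p = 0.989 for both), and 0 of 10062 genes were called. The selected spots were thus not told apart from their neighbours by this test, and a p that misses the threshold does not show that the effects were alike.

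The calls of Naaa and Tesc were less stable. Naaa, a lysosomal amidase of lipid mediators, stood at 123 and 184 CPM in the selected spots of rNLS8 and at 182 and 282 CPM in those of Control, and at 63.2 and 85.9 CPM in the remaining spots of rNLS8 and 51.8 and 65.7 CPM in those of Control (difference -0.96, SE 0.21; edgeR adjusted p = 0.0206). Its fold changes lay on opposite sides of 0, at -0.67 in the selected and 0.34 in the remaining spots. Tesc, a calcium-binding protein, was at 119 and 67.4 CPM in the selected spots of rNLS8 and at 86.6 and 132 CPM in those of Control, and at 104 and 73.7 CPM in the remaining spots of rNLS8 and 216 and 231 CPM in those of Control (1.14, SE 0.26; edgeR adjusted p = 0.0282). In the multi-gene spots neither passed (edgeR adjusted p = 0.286 for Naaa and 0.417 for Tesc). Next above 0 for the difference, without passing, were Smarcc1 and, of the striatal list, Ppp1r1b and Penk. Next below 0, also without passing, were Gadd45g and, of the subventricular zone list, Thbs4.

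With 1 section left out, the differences kept their direction, from -1.13 to -0.77 for Naaa and from 0.89 to 1.48 for Tesc, but most of these fits did not pass. Without Control replicate 2 the edgeR adjusted p was 0.724 for Naaa and 0.0553 for Tesc, and without rNLS8 replicate 1 it was 0.560 for Naaa and 1.00 for Tesc. Without rNLS8 replicate 2 it was 0.169 for Naaa and 0.0520 for Tesc, and without Control replicate 1 it was 0.453 for Tesc, while Naaa passed there (0.00709). With the replicate block, the edgeR adjusted p was 0.124 for Naaa and 0.0712 for Tesc. B2m had a difference of -0.86 (SE 0.28; edgeR adjusted p = 0.385).

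**Figure D4:**
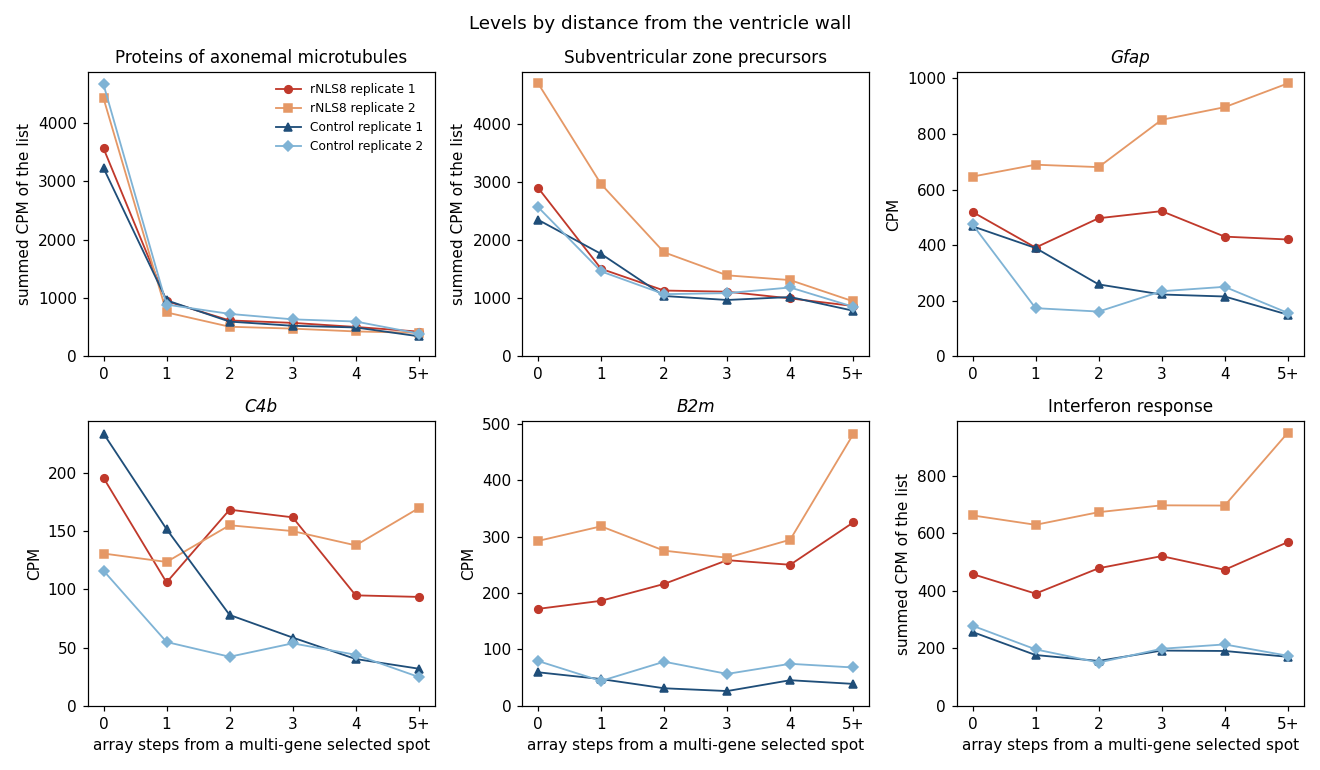
Level in CPM of the zone's own UMI against the distance from the nearest multi-gene selected spot in array steps (0 is the multi-gene spots themselves), 1 line per section, for 3 gene lists and 3 genes. The cilium list drops within 1 step in all 4 sections, and Gfap at 5 or more steps stands at 420 and 981 CPM in rNLS8 and at 150 and 157 CPM in Control.

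By distance from the multi-gene spots, cilium genes dropped within 1 step. The microtubule list stood at 3561 and 4418 CPM at the wall in rNLS8 and at 3224 and 4654 CPM in Control, and 1 step away at 946 and 753 CPM in rNLS8 and at 961 and 887 CPM in Control. The subventricular zone list reached 1508 and 2966 CPM in rNLS8 and 1765 and 1464 CPM in Control at 1 step, and 868 and 948 CPM in rNLS8 and 786 and 855 CPM in Control at 5 or more steps.

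Gfap differed between the groups in this profile, given as a description. In rNLS8 replicate 1 it was 519 CPM at the wall and, at 1, 2, 3, 4 and 5 or more steps, 391, 497, 522, 431 and 420 CPM. In rNLS8 replicate 2 it was 647, 689, 681, 851, 896 and 981 CPM in that order. In Control replicate 1 it was 468, 390, 259, 223, 215 and 150 CPM, and in Control replicate 2 474, 173, 161, 234, 250 and 157 CPM. Both rNLS8 sections lay above both Control sections at each distance. At the wall all 4 sections lay between 468 and 647 CPM. C4b was at 196 and 131 CPM at the wall in rNLS8 and at 234 and 116 CPM in Control, and at 5 or more steps at 93.6 and 170 CPM in rNLS8 and at 31.9 and 24.8 CPM in Control.

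B2m was lower at the wall than at 5 or more steps in both rNLS8 sections. It stood at 172 and 293 CPM at the wall and at 325 and 482 CPM at 5 or more steps in rNLS8, against 59.6 and 79.6 CPM at the wall and 39.0 and 68.1 CPM at 5 or more steps in Control. The rNLS8 sections lay above the Control sections at each distance.

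Because the share of spots taken is fixed, the amount of ependymal RNA was compared over whole sections. Ccdc153 was at 16.3 and 9.65 CPM in rNLS8 and at 17.5 and 16.8 CPM in Control over all kept spots. The levels of the selecting genes are given as descriptions. With 2 sections against 2, the smallest p that an exact permutation test can give is 0.333. Tmem212 was at 9.62 and 3.80 CPM in rNLS8 and at 10.9 and 9.24 CPM in Control, and Dynlrb2 at 5.24 and 1.99 CPM in rNLS8 and at 7.08 and 4.89 CPM in Control. The lowest value of each was that of rNLS8 replicate 2, the section with the fewest multi-gene spots. Rarres2 was at 42.5 and 43.9 CPM in rNLS8 and at 40.2 and 40.3 CPM in Control.

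Over whole sections Foxj1 was at 4.60 and 2.86 CPM in rNLS8 and at 2.93 and 3.79 CPM in Control (log2 fold change 0.16, SE 0.36; edgeR adjusted p = 0.865). Of the 20 leading genes 19 were below 0, with a median of -0.45, 1 had an unadjusted p under 0.05 (Lrrc74b), and edgeR called 0 of them, out of 0 of 13433 genes called (0.0%) and 2078 (15.5%) at an unadjusted p under 0.05. Dnali1 was at 6.21 and 2.86 CPM in rNLS8 and at 6.44 and 5.02 CPM in Control (-0.32, SE 0.42; edgeR adjusted p = 0.735), with rNLS8 replicate 2 again the lowest. The number of multi-gene spots differed more within rNLS8 (42 and 12) than between the group means (27 in rNLS8 and 29 in Control), and its part in the whole-section levels was not tested.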

How the data were processed

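Visium libraries of 4 sections were analysed, 2 rNLS8 and 2 Control. Space Ranger 2.1.0 is named in the file headers and mm10 in the submitters' processing notes, while the probe set is not given in the sources used here. Raw UMI counts per gene and spot, without normalization, and a score, Moran's I per gene and section, were deposited by the authors, per the file headers. The other deposited columns were not used.

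Spots under tissue with 1000 or more UMI were kept, and UMI were summed per section over selected and remaining spots, since spots are not replicates. The 3033, 2656, 3962 and 3343 spots under tissue (rNLS8 replicates 1 and 2, Control replicates 1 and 2) held 28056089, 17627577, 19064969 and 23869254 UMI, so 1 UMI of the selected spots is worth 1.67, 4.61, 4.21 and 2.97 CPM. Quasi-likelihood models were fitted in edgeR 4.0.16 (R 4.3.3), with trimmed-mean (TMM) scaling and filterByExpr at its defaults, and p-values were adjusted by Benjamini-Hochberg over the genes tested. The SE of a log2 fold change was taken as its absolute value divided by the root of F. CPM are scaled by TMM, except for the selecting genes, in list sums, by distance and in ratios to the remaining spots, where they are scaled by the summed UMI. Floors take a count of 0 as up to 3 counts and cover counting error only. Alternatives were DESeq2 1.42.0, another normalization, no filter, the replicate block, each section left out, other rules for the spots and limma 3.58.1. On simulated counts, 35.2% of genes with 2-fold and 92.7% with 4-fold differences were called in the selected spots (5971 genes). Each simulated gene had the spread typical of its level and none of its own, so these shares are not the power on the real counts. For the difference of effects the shares were 5.05% and 36.0% (12959 genes). There both sums of a section were drawn independently, with a spread estimated without the section block. The real fit of the difference had a biological coefficient of variation of 0.0624, against 0.161 in selected and 0.194 in remaining spots alone. The shares for the difference are thus not the power of that test on these data.

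Chi-square per degree of freedom between sections of a group was 18.5 in rNLS8 and 45.4 in Control, so no section repeats another. Of spot barcodes, which mark array positions, 1827 occur in all 4 sections. The rule names, against the remaining spots, the 20 genes with the largest mean ratio among those with 100 or more UMI; per genotype comparison, the genes past the threshold, filled up with the smallest unadjusted p among genes of 20 CPM or more to 10 in each direction (5 for the difference); and the most abundant members of 27 gene lists. Stoml3, Mns1 and Rfx2 and the promoter patterns were taken up after values were seen. Single values of 3 genes that the rule names are not reported here. The spots, lists and tests were chosen with earlier results of these data known.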

Additional observations from a re-analysis of the deposited data

Results flagged for a closer look

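The rNLS8 effect differed between the selected and the remaining spots for Gfap, C4b, Naaa and Tesc by the edgeR test of the difference itself, each value being the joint model's estimate of the log2 fold change in selected spots relative to that in remaining spots. It was -1.31 for Gfap, -1.55 for C4b, -0.96 for Naaa and 1.14 for Tesc. For Gfap and C4b the adjusted p ran from 2.15e-18 and 4.42e-10 to 0.989 over 20 alternatives. For Naaa it ran from 0.00121 to 1.00 and for Tesc from 0.00793 to 1.00. In limma on the per-section ratios, chosen after seeing the data, the adjusted p was 0.00339 for Gfap and 0.0160 for C4b. The share of multi-gene spots among the selected ones averaged 61.7% in both groups, from 93.3% and 30.0% in rNLS8 and 68.1% and 55.3% in Control. Those spots supplied 98.1% and 59.9% of the selected spots' UMI in rNLS8 and 91.8% and 89.4% in Control. Gfap and C4b passed in the multi-gene spots alone, and the part of this mix in the differences was not tested.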

How the results depend on the processing

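Among selected spots, the count of called genes was 0 by default, and it was 1 with no filter and 1 with the replicate block. Leaving out 1 section each gave 0 to 8 (8 without Control replicate 1 and 3 without rNLS8 replicate 1), and 0 to 25 in the multi-gene spots (25 without Control replicate 2 and 2 without Control replicate 1). B2m was called with no filter (adjusted p = 0.000438), with the replicate block (0.00389), without Control replicate 1 (0.0104) and without rNLS8 replicate 1 (0.000154), and in 6 of 24 alternatives in all. Of 23 genes followed, 10 were called under some alternative and 2 changed sign. C4b was -0.28 to 0.79 with 1 section left out (-0.28 without Control replicate 2 and 0.79 without Control replicate 1), -0.035 in selected spots with a selected neighbour, -0.0075 in multi-gene spots, and there -0.12 with the replicate block, -0.49 without Control replicate 2 and -0.47 without rNLS8 replicate 1. Foxj1 was -0.24 to 0.60 with 1 section left out (-0.24 without rNLS8 replicate 1, -0.16 without Control replicate 1 and 0.60 without Control replicate 2) and -0.094 in multi-gene spots without Control replicate 1. The causes were not tested.

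In remaining spots 326 genes were called with no filter, 142 with the replicate block, 521 by DESeq2 and 4 to 2166 with 1 section left out (2166 without Control replicate 2). In whole sections these counts were 229, 77, 524 and 2 to 1874 (1874 without Control replicate 2).

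For the difference of effects, against 5 calls by default, the count was 2 by DESeq2, 18 with a minimum of 3000 UMI, 11 with the top 3%, 13 when Rarres2 was not used to select, 2 in spots with a selected neighbour, 2 in multi-gene spots, 8 without the spots of highest meningeal share, 3 away from the edge, 2 by limma, 0 against spots 1 or 2 steps away, 5 with the replicate block (3 of them the same genes, with Naaa and Tesc lost) and 3 to 10 with 1 section left out. The counts without the highest choroid plexus share (7) and with a minimum of 500 UMI (7) were close to 5.

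Sections with the same replicate number did not deviate together (correlation -0.10 in the selected spots), so the numbers do not pair the samples. The crossed pairing, added after seeing the data, called 10 genes. Depth limits the selected spots: of 19465 genes, 6311 could be tested there, against 13375 in the remaining spots.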
